A study of Mus musculus with 12 samples.

Results

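The 9 genes described here encode receptor chains for interleukin-6 (IL-6) and interleukin-1 (IL-1) and the proteins that carry or restrain their signals: Il6ra, Il6st, Lifr, Stat3, Socs3, Il1r1, Il1rn, Bcl3 and Nfkbia. They were taken by gene symbol from the 17432 genes of the liver table, and all 9 were among the 12344 genes with enough counts to be tested. Livers of 12 male wild-type C57BL/6J mice aged 8 to 10 weeks were sequenced, 6 from sedentary mice and 6 from mice that ran on a treadmill at 14 m/min for 3 hours in the fed state. Neither group carried a genetic change, and the mice had been held to daytime feeding and accustomed to the treadmill over the preceding days. The comparison asks which liver transcripts differ after a single postprandial bout of aerobic exercise.

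IL-6 binds its receptor alpha chain (Il6ra), and the pair engages gp130 (Il6st), the signaling chain that related cytokines share. JAK kinases bound to gp130 phosphorylate STAT3, which enters the nucleus and, in hepatocytes, drives genes of the acute phase response. SOCS3, itself a product of a STAT3 target gene, shuts off gp130. IL-1 signals through IL1R1 and its partner IL1RAP to MYD88 and the IKK kinases, which release NF-kB from the inhibitor IkB-alpha (Nfkbia), while the IL-1 receptor antagonist (Il1rn) occupies the receptor without signaling.

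After exercise, Il1r1, Il6ra, Nfkbia and Stat3 were higher and Bcl3 was lower, while Il6st, Lifr, Socs3 and Il1rn did not pass the test. Il1r1 rose 4.07-fold, Il6ra 2.46-fold and Nfkbia 2.00-fold. Thus 5 of the 9 genes changed (edgeR, quasi-likelihood test, Benjamini-Hochberg adjusted p below 0.05), against 42.4% of all genes tested. The 4 higher genes stand beside 21.1% of all genes that were higher, and the 1 lower gene beside 21.3% that were lower. With so much of the liver transcriptome past the threshold, the count by itself does not set these 9 genes apart, and the sizes of the changes carry the description.

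Levels are given as CPM, counts scaled to the library size and by the TMM factors of edgeR. Library totals lay between 18745379 and 19324461 counts, and the 9 genes had at least 58 counts in every liver except for Il1rn. Hepatocyte markers dominated the RNA, with a mean of 1.00e+05 CPM for Alb (albumin) in sedentary livers. In whole tissue, fewer cells of a type and less RNA per cell cannot be told apart. The TMM factors ranged from 0.914 in Exercise replicate 3 to 1.09 in Sedentary replicate 2. Sedentary replicate 2 was also the lowest sedentary liver for 7 of the 9 genes, and Exercise replicate 3 was the highest exercised liver for 6. On library size alone these counts were 7 and 4. The edgeR fit was also run without each of these livers, as without every other liver. All other comparisons used the 12 livers together.

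**Figure D1:**
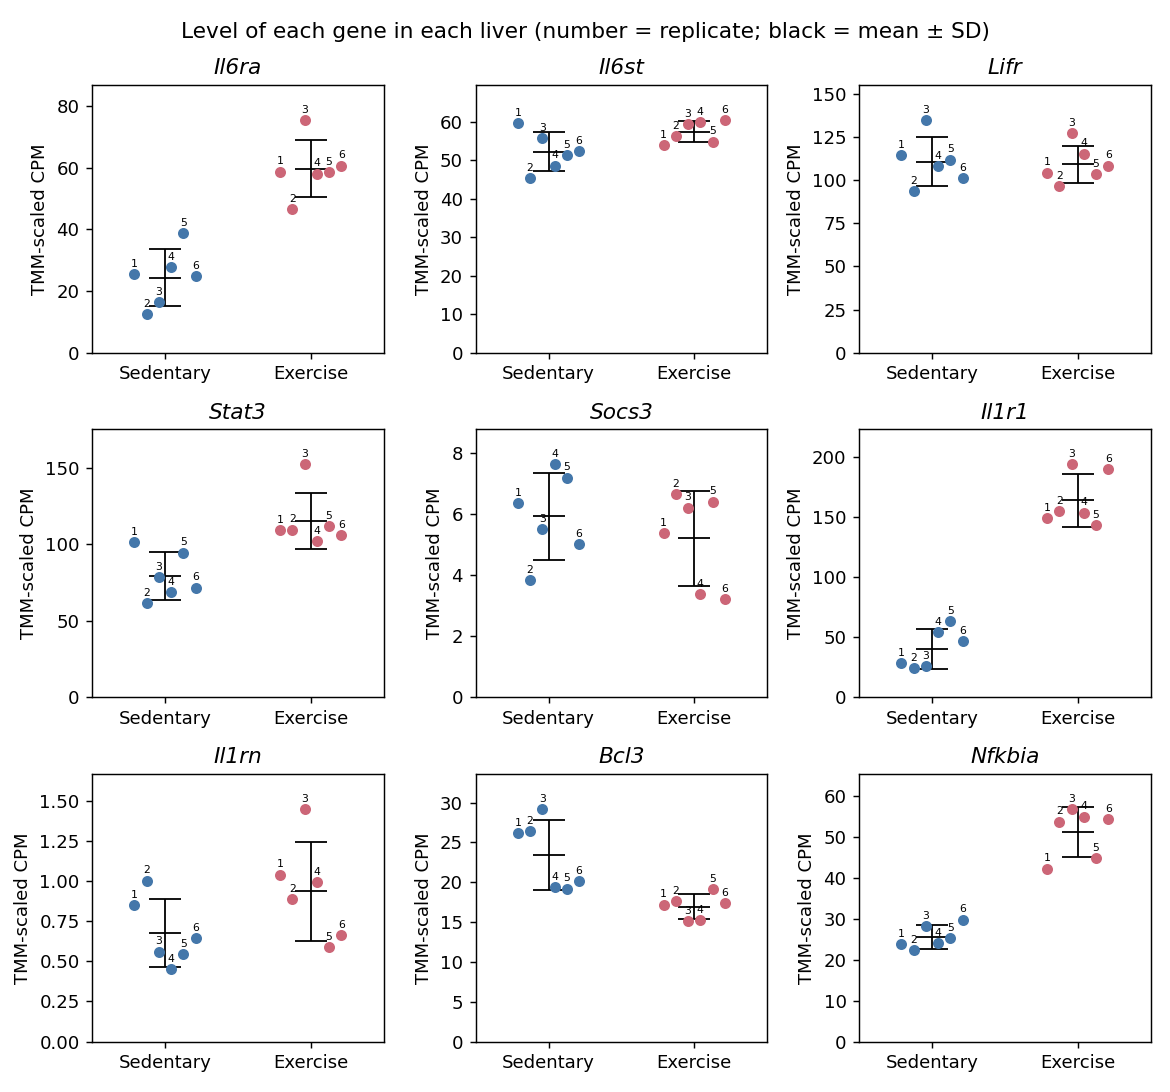
Level of each of the 9 genes in each liver, in TMM-scaled CPM on axes that start at 0. Each point is 1 liver, labelled with its replicate number, and black marks show the mean ± SD of 6 livers. For Il1r1, Il6ra and Nfkbia the groups are wide apart, for Stat3 and Bcl3 they nearly touch, and for the other 4 genes they overlap.

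Il6ra, the chain that binds IL-6, lies on chromosome 3 of GRCm38 from 89864059 to 89913196 on the minus strand, where its first 281 bases overlap an annotated antisense gene. The 250 bases before its first start, with the same stretch of Il1r1, are printed here because these were the genes with the largest rises (RefSeq, GRCm38.p6, each 5′ to 3′ on the strand of the gene). The Il6ra stretch is chr3:89913197-89913446 on the minus strand, with a G+C content of 65.2%, and the Il1r1 stretch is chr1:40224830-40225079 on the plus strand, with 48.4%. Neither holds a match to the STAT, NF-kB or glucocorticoid receptor letters given below with Socs3 and Nfkbia, so no base is in capitals.
Il6ra: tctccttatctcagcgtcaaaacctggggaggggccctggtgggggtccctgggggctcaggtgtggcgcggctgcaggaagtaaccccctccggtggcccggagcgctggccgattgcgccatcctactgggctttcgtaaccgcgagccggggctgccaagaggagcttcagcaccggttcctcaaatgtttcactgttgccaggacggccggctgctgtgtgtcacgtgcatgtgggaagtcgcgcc
Il1r1: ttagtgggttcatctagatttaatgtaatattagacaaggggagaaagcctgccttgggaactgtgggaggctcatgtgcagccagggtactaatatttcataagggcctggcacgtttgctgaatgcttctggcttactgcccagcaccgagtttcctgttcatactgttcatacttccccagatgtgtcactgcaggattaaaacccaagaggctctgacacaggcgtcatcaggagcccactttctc

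Il6ra ranged from 12.5 to 38.8 CPM (median 25.1) in sedentary livers and from 46.6 to 75.5 CPM (median 58.6) in exercised livers. Every exercised liver was above every sedentary liver. The means were 24.3 ± 9.25 CPM (SD, n = 6) and 59.7 ± 9.23 CPM (SD, n = 6), which is 1.30 higher on the log2 scale (SE 0.24, adjusted p = 0.00123 by edgeR). The exact two-sided permutation test over all 924 relabellings of the livers gave p = 0.00216, the smallest it can give. Among sedentary livers Il6ra was one of the most variable of the 9 genes, with a coefficient of variation of 38.1%, against 15.5% after exercise. The log2 fold change was smallest without Sedentary replicate 2 (1.17) and largest without Sedentary replicate 5 (1.49), the lowest and the highest sedentary liver.

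Il6st, which encodes gp130, lies on chromosome 13 from 112464070 to 112510086 on the plus strand. It ranged from 45.3 to 59.7 CPM (median 52.0) in sedentary livers and from 54.1 to 60.5 CPM (median 57.8) in exercised livers. The groups overlapped, with 2 exercised livers above every sedentary liver. The log2 fold change of 0.14 (SE 0.064, 95% interval 0.0037 to 0.27) did not pass the test across all genes (adjusted p = 0.0917 by edgeR), and the exact permutation test of Il6st on its own gave p = 0.0498. Without Sedentary replicate 1, the highest sedentary liver, Il6st passed (log2 fold change 0.18, adjusted p = 0.0259 by edgeR). A doubling of the kind seen for Il6ra lies outside this interval.

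Lifr, the receptor chain for leukemia inhibitory factor that pairs with gp130, lies on chromosome 15 from 7090614 to 7197489 on the plus strand. It ranged from 93.6 to 135 CPM (median 110.1) in sedentary livers and from 96.7 to 127 CPM (median 106) in exercised livers. The ranges lay almost on top of each other. The log2 fold change was -0.018 (SE 0.082, 95% interval -0.19 to 0.15, adjusted p = 0.880 by edgeR). The deposited count of Lifr was not a whole number in any of the 12 livers, and the length that its FPKM implies varied from 3745 to 4645 bases between livers, in both groups.

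Levels of different genes were compared only on the length-scaled measure, FPKM. By the medians, Il6ra lay below Il6st, its partner, in sedentary livers and above it in exercised livers. The ratio of Il6ra to Il6st was 0.447 to 1.22 (median 0.730) in sedentary livers and 1.35 to 2.07 (median 1.68) in exercised livers. The ratio of Il6ra to Lifr was 0.152 to 0.390 in sedentary livers and 0.600 to 0.781 in exercised livers. Neither ratio overlapped between the groups. These ratios compare transcripts in whole liver and say nothing of receptor at the cell surface.

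**Figure D2:**
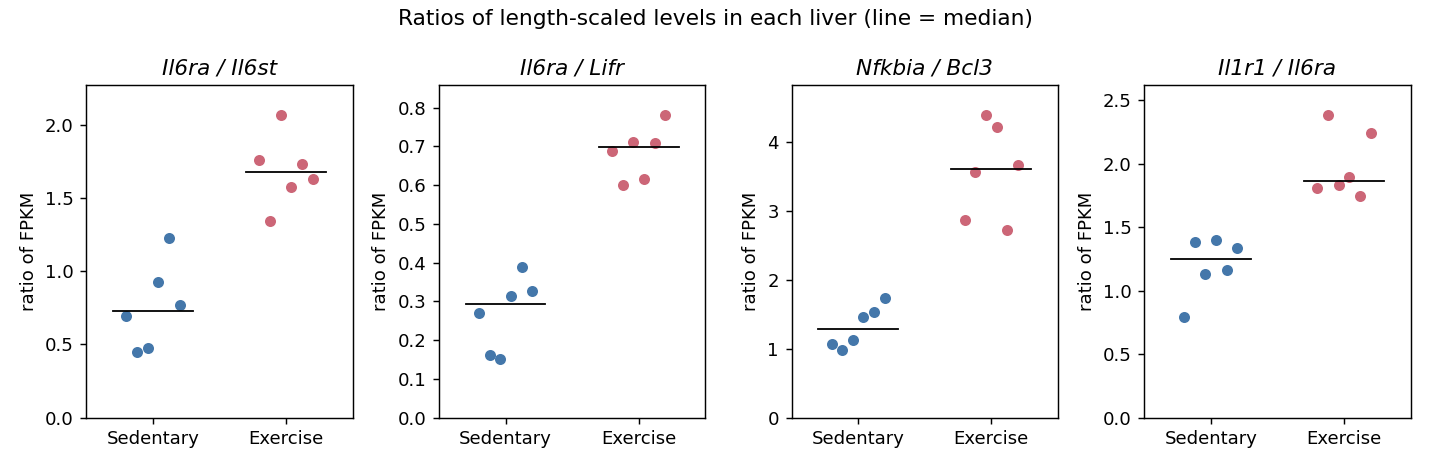
Ratio of the FPKM of 2 genes in each liver, for Il6ra over Il6st, Il6ra over Lifr, Nfkbia over Bcl3 and Il1r1 over Il6ra, on axes that start at 0. Points are livers and lines are medians of 6. The ratio of Il6ra to Il6st has a median of 0.730 in sedentary and 1.68 in exercised livers, and none of the 4 ratios overlaps between the groups. The first gene of each ratio was by itself without overlap in FPKM. The ratio of Stat3 to Socs3, not shown, overlapped slightly.

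Stat3, the transcription factor downstream of gp130, lies on chromosome 11 from 100885098 to 100939540 on the minus strand and shares 72 bases with the end of Stat5a on the other strand. It ranged from 61.5 to 101 CPM (median 75.2) in sedentary livers and from 102 to 152 CPM (median 109) in exercised livers. The groups did not overlap, but the gap was only 0.926 CPM, and they did overlap on library size alone and in FPKM. The means were 79.4 ± 15.6 CPM (SD, n = 6) and 115 ± 18.5 CPM (SD, n = 6), which is 0.54 higher on the log2 scale (SE 0.13, adjusted p = 0.00451 by edgeR). Exercise replicate 3 stood apart at 152 CPM, with the next liver at 112 CPM. Without it the log2 fold change of Stat3 was 0.45, still past the test. Stat5a, with which it overlaps, moved the other way, from 10.5 ± 0.904 to 6.66 ± 0.849 CPM (SD, n = 6 each).

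Socs3, the feedback inhibitor of gp130, lies on the same chromosome from 117966079 to 117970047 on the minus strand. The letters TTCNNNGAA, the core that STAT proteins bind, occur in the 250 bases before a start of 7.01% of 32817 start windows in the RefSeq table. Of the 13 windows of the 9 genes, 1 window held them, that of Socs3, at 154 to 146 bases before its RefSeq start at 117969366. This start lies inside the longer GENCODE span of the gene given above. The match is in capitals in the stretch chr11:117969452-117969616 on the minus strand, which holds no annotated exon of Socs3, and it is a match of letters, not a measured site.
Socs3: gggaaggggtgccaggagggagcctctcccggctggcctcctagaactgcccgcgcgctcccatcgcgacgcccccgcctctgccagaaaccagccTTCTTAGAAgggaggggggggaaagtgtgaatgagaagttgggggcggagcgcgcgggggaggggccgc

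Socs3 did not pass the test. It ranged from 3.82 to 7.61 CPM (median 5.93) in sedentary livers and from 3.20 to 6.63 CPM (median 5.78) in exercised livers, and the groups overlapped. The log2 fold change was -0.18 (SE 0.21, 95% interval -0.62 to 0.26, adjusted p = 0.511 by edgeR). Exercise replicates 4 and 6 were the lowest, at 3.36 and 3.20 CPM, while the other 4 exercised livers lay between 5.36 and 6.63 CPM. For Socs3 the log2 fold change was -0.071 without Exercise replicate 6, -0.080 without Exercise replicate 4 and -0.28 without Sedentary replicate 2, none of them past the test. Counts of Socs3 were 58 to 151 per liver. Per length, the ratio of Stat3 to Socs3 was 5.53 to 10.2 (median 8.80) in sedentary and 10.0 to 20.3 (median 13.7) in exercised livers, with a slight overlap.

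Il1r1, the signaling receptor for IL-1, had the largest change of the 9 genes. It lies on chromosome 1 from 40225080 to 40317257 on the plus strand. There 6480 bases overlap Gm38070, annotated on the same strand and absent from the deposited counts. Sedentary replicates 1 to 6 had 28.6, 24.0, 25.7, 54.0, 63.1 and 46.4 CPM, and exercised replicates 1 to 6 had 149, 155, 194, 154, 143 and 190 CPM. The lowest exercised liver was above the highest sedentary liver by 79.7 CPM. The means were 40.3 ± 16.5 CPM (SD, n = 6) and 164 ± 22.0 CPM (SD, n = 6), which is 2.03 higher on the log2 scale (SE 0.25, adjusted p = 9.49e-05 by edgeR, exact permutation p = 0.00216). Leaving out 1 liver at a time kept it between 1.91, without Sedentary replicate 2, and 2.20, without Sedentary replicate 5.

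Il1rn, the secreted antagonist of that receptor, lies on chromosome 2 from 24336853 to 24351494 on the plus strand and was scarce, with 8.96 to 25.1 counts per liver. It ranged from 0.454 to 1.00 CPM (median 0.603) in sedentary livers and from 0.586 to 1.45 CPM (median 0.940) in exercised livers. The groups overlapped. The log2 fold change of 0.45 (SE 0.26, 95% interval -0.090 to 1.00, adjusted p = 0.171 by edgeR) did not pass the test, and the interval reaches from just below 0 to nearly the change of Nfkbia. Without Exercise replicate 3, the highest exercised liver, the value was 0.30, and without Sedentary replicate 2, the highest sedentary liver, it was 0.60, neither past the test. The FPKM ratio of Il1r1 to Il1rn was 12.2 to 63.2 in sedentary livers and 69.1 to 141 in exercised livers. These ranges did not overlap, but Il1r1 by itself was already without overlap in FPKM, and the ratio divides by the few counts of Il1rn.

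Within the sedentary group, Il1r1 and Bcl3 split the livers in opposite ways. Replicates 4, 5 and 6 had 46.4 to 63.1 CPM of Il1r1 and 19.2 to 20.1 CPM of Bcl3, while replicates 1, 2 and 3 had 24.0 to 28.6 CPM of Il1r1 and 26.2 to 29.2 CPM of Bcl3. In both genes, replicates 4, 5 and 6 lay nearer to the exercised livers. The labels give no batch, litter or day that would set these livers apart, and the cause was not tested.

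Nfkbia, the inhibitor that holds NF-kB in the cytoplasm and is itself induced by NF-kB, lies on chromosome 12 from 55489410 to 55492647 on the minus strand. Its promoter is printed because it holds a match to the NF-kB letters (GGG, any pair of bases, TT, any base, CC), found on either strand in 4.11% of windows of this length, and also in a window of Il1rn at 51 to 42 bases before its start. In Nfkbia the match, in capitals, lies 29 to 20 bases before the start, in chr12:55492648-55492897 on the minus strand. The glucocorticoid receptor core letters ACANNNTGT occur in 5.84% of windows and in 0 of the 13 windows of these genes.
Nfkbia: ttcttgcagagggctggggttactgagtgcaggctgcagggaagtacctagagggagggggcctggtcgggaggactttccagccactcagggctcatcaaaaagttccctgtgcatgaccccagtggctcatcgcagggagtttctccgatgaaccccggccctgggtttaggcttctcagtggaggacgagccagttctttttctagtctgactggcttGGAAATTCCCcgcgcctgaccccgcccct

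Nfkbia ranged from 22.3 to 29.8 CPM (median 24.7) in sedentary livers and from 42.2 to 56.9 CPM (median 54.1) in exercised livers. Every exercised liver was above every sedentary liver, with a gap of 12.4 CPM. The means were 25.6 ± 2.84 CPM (SD, n = 6) and 51.2 ± 6.07 CPM (SD, n = 6), which is 1.00 higher on the log2 scale (SE 0.085, adjusted p = 1.30e-07 by edgeR). The coefficients of variation were 11.1% in sedentary and 11.9% in exercised livers, and the adjusted p was the smallest of the 9 genes.

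Bcl3, a nuclear IkB family protein that modulates NF-kB at its targets, was the only one of the 9 genes that fell. It lies on chromosome 7 from 19808462 to 19822770 on the minus strand and overlaps 2 annotated antisense genes, and the sources used here do not give a strand setting for the counting. It ranged from 19.2 to 29.2 CPM (median 23.2) in sedentary livers and from 15.1 to 19.2 CPM (median 17.3) in exercised livers. The groups met at one point, 0.0125 CPM apart, and overlapped on library size alone and in FPKM. The means were 23.4 ± 4.37 CPM (SD, n = 6) and 16.9 ± 1.55 CPM (SD, n = 6), and Bcl3 fell by 0.47 on the log2 scale (SE 0.11, adjusted p = 0.00208 by edgeR). The FPKM ratio of Nfkbia to Bcl3 was 0.983 to 1.73 (median 1.29) in sedentary livers and 2.72 to 4.39 (median 3.61) in exercised livers.

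In all, Il6ra, Stat3, Il1r1, Bcl3 and Nfkbia did not overlap between the groups on the TMM scale. These were 5 of the 9 genes, against 22.3% of all genes tested on that scale. On library size alone or in FPKM 3 of the 9 genes did not overlap. The share of all genes was not counted on those scales, so this count has no background beside it. The exact permutation p was 0.00216 for each of the 5. Every gene without overlap on the TMM scale gets this value, so it adds nothing to the lack of overlap.

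**Figure D3:**
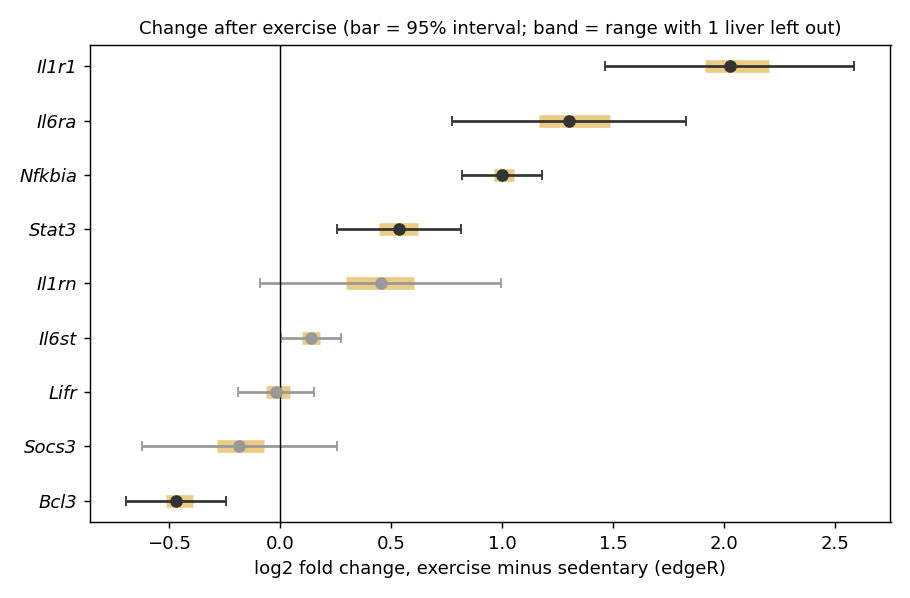
Log2 fold change of each gene, exercise minus sedentary, from edgeR. Bars are 95% intervals and bands span the values with 1 of 12 livers left out. Dark points passed an adjusted p under 0.05 and grey points did not. The bands of the 5 changed genes stay on one side of 0, and that of Lifr crosses it.

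On the length-scaled level the order of the genes differed between the groups. In sedentary livers Lifr was highest at 27.9 FPKM, followed by Stat3 (18.3), Nfkbia (17.3), Bcl3 (13.6), Il6st (9.99), Il1r1 (8.88) and Il6ra (7.47 FPKM). Each of these overlapped its neighbour in the order. Socs3 at 2.21 FPKM and Il1rn at 0.298 FPKM were each clear of the gene above. In exercised livers Il1r1 came first at 34.0 FPKM, then Nfkbia (32.3), Lifr (25.3) and Stat3 (24.9 FPKM), all overlapping with their neighbours. Il6ra at 17.3 FPKM stood clear of the genes on both sides, Il6st (10.3) and Bcl3 (9.20) overlapped, and Socs3 at 1.86 and Il1rn at 0.377 FPKM were again separate. Il1r1 moved most in this order, and its FPKM ratio to Il6ra was 0.794 to 1.40 in sedentary livers and 1.75 to 2.38 in exercised livers.

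The other genes of these pathways were described by 10 lists holding 120 genes, of which 95 were tested. Of these, 38 changed (40.0%, against 42.4% of all genes), 30 higher and 8 lower. The split depended on scaling: with library size alone it was 21 higher and 17 lower, and with limma on FPKM 20 and 16. The median log2 fold change over all genes was -0.0028 with TMM factors, -0.098 with library size alone and -0.093 in FPKM.

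Of 8 IL-6 family ligands only Cntf (ciliary neurotrophic factor) and Ctf1 (cardiotrophin) had enough counts to test. Cntf rose from 1.26 ± 0.441 to 2.91 ± 0.444 CPM (SD, n = 6 each), which is 1.20 higher on the log2 scale (SE 0.20, adjusted p = 0.000155 by edgeR). The log2 fold change of Ctf1 was -0.083 (adjusted p = 0.661 by edgeR). Il6 itself had 1 count in all sedentary and 1 in all exercised livers together, and so had Osm (oncostatin M), both under a floor of 3 counts per group. Il11, Il27, Lif and Clcf1 had 5.45 to 73.0 counts per group. Among the other IL-6 family receptor chains, 2 of 4 tested were higher, Osmr, the oncostatin M receptor chain (log2 fold change 1.17, adjusted p = 5.74e-05 by edgeR), and Cntfr (0.54, adjusted p = 0.00839), with a list median of 0.25. With library size alone 2 were higher and 1 lower, and with limma on FPKM, where Cntfr did not pass, 1 was higher and 1 lower.

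Of 9 JAK kinases and other STAT factors 1 was higher and 2 were lower, with a median log2 fold change of -0.0088. With library size alone and with limma on FPKM, 0 were higher and 3 lower. Stat5a, which growth hormone signaling activates in liver, fell by 0.65 on the log2 scale (adjusted p = 2.58e-05 by edgeR). Stat5b was higher by 0.23 but did not pass in 10 of 21 alternative settings. The log2 fold changes of Jak1 (0.090) and Jak2 (0.27) did not pass. Jak2 passed in 3 of 21 alternative settings, each with 1 liver left out. Jak1 was below 0 with library size alone and with limma on FPKM. Among 14 other inhibitors of the pathway 5 were higher (Socs4, Socs7 and the Pias1, Pias2 and Pias3 regulators of STAT activity) and 1 was lower, with a median of 0.12. With library size alone 2 were higher and 3 lower and with limma on FPKM 2 and 2, and Pias1, Pias2 and Pias3 did not pass with either. The lower gene was Cish, a SOCS family member best known as a STAT5 target, which fell by 1.75 on the log2 scale (adjusted p = 0.000789 by edgeR). Socs2, a feedback inhibitor of growth hormone signaling, had a log2 fold change of -1.55 (adjusted p = 0.0623 by edgeR) and passed in 4 of 21 alternative settings, DESeq2 and library size alone among them, with values from -1.94 to -1.19. Socs1, with 2 to 10 counts per liver, was not tested.

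Of 4 IL-1 family ligands tested 0 passed with edgeR and TMM factors, DESeq2 or limma-voom, and 1 (Il33) had an unadjusted p under 0.05 with edgeR. Il33 was lower with upper quartile factors and with at least 10 counts asked of every liver, and 2 ligands were lower with library size alone and in FPKM. The log2 fold changes were -0.070 for Il1a, -0.26 for Il1b, -0.20 for Il18 and -0.51 for Il33 (adjusted p = 0.0537). Among 14 other receptors, decoys and adaptors of the IL-1 family, 2 were higher and 2 lower, against 1 and 4 with library size alone and with limma on FPKM. Myd88, the adaptor of IL-1 and Toll-like receptors, was higher by 0.36 (adjusted p = 0.000668 by edgeR), as was Tab2, which did not pass with library size alone or in FPKM. Tab1, a partner of the kinase TAK1, fell by 1.06 on the log2 scale and Sigirr, an inhibitory receptor, by 0.20. Il1rap, the partner chain of IL1R1, was at 156 ± 6.00 CPM in sedentary and 149 ± 6.44 CPM in exercised livers (SD, n = 6 each), which did not pass with TMM factors (adjusted p = 0.291 by edgeR) and was lower with library size alone and in FPKM.

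Of 8 NF-kB subunits and IKK kinases, 4 were higher and 1 lower, against 2 and 2 with library size alone and with limma on FPKM. Nfkb2 (log2 fold change 0.73, adjusted p = 2.42e-06 by edgeR) and Rel (0.67) rose, and Ikbkg was higher with TMM factors but did not pass with library size alone or in FPKM. Rela was higher by only 0.15 and did not pass in 15 of 21 alternative settings, Nfkb1 had a log2 fold change of -0.038, and Chuk, a catalytic IKK kinase, fell by 0.39. Of 7 other NF-kB inhibitors 3 rose, namely Tnfaip3 (A20; log2 fold change 0.61), Cyld (0.43) and Nfkbiz (0.41), and 0 fell. Of 14 inflammatory genes known to respond to NF-kB, 8 were tested. Vcam1 was higher (1.35), Icam1 (-0.55) and Birc3 (-0.53) were lower, and 5 did not pass. With at least 10 counts asked of every liver 2 were higher and 2 lower, and with the replicate number as a block 1 and 3.

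Of 25 genes known to respond to STAT3 or in the acute phase, 11 were higher and 0 lower, with a median log2 fold change of 0.22. Among all genes tested 42.4% changed, 21.1% higher and 21.3% lower. With library size alone and with limma on FPKM 9 were higher and 0 lower, without Hpx and Itih3. The smallest p values were those of Pim3 (a kinase; 0.98), Junb (a transcription factor; 1.52) and Cebpd (a transcription factor of the acute phase; 1.41). Lcn2, Lbp, Hp, Crp, Lrg1, Serpina3n, Hpx and Itih3 also passed. The serum amyloid genes Saa1 (25.2 ± 9.06 and 29.3 ± 10.5 CPM, SD, n = 6 each) and Saa2 (14.6 ± 5.32 and 13.0 ± 4.99 CPM) and the fibrinogen chains did not pass the test. Neither did Hamp (log2 fold change -0.89, adjusted p = 0.206 by edgeR) nor Pim1 (-0.23), both with values below 0.

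**Figure D4:**
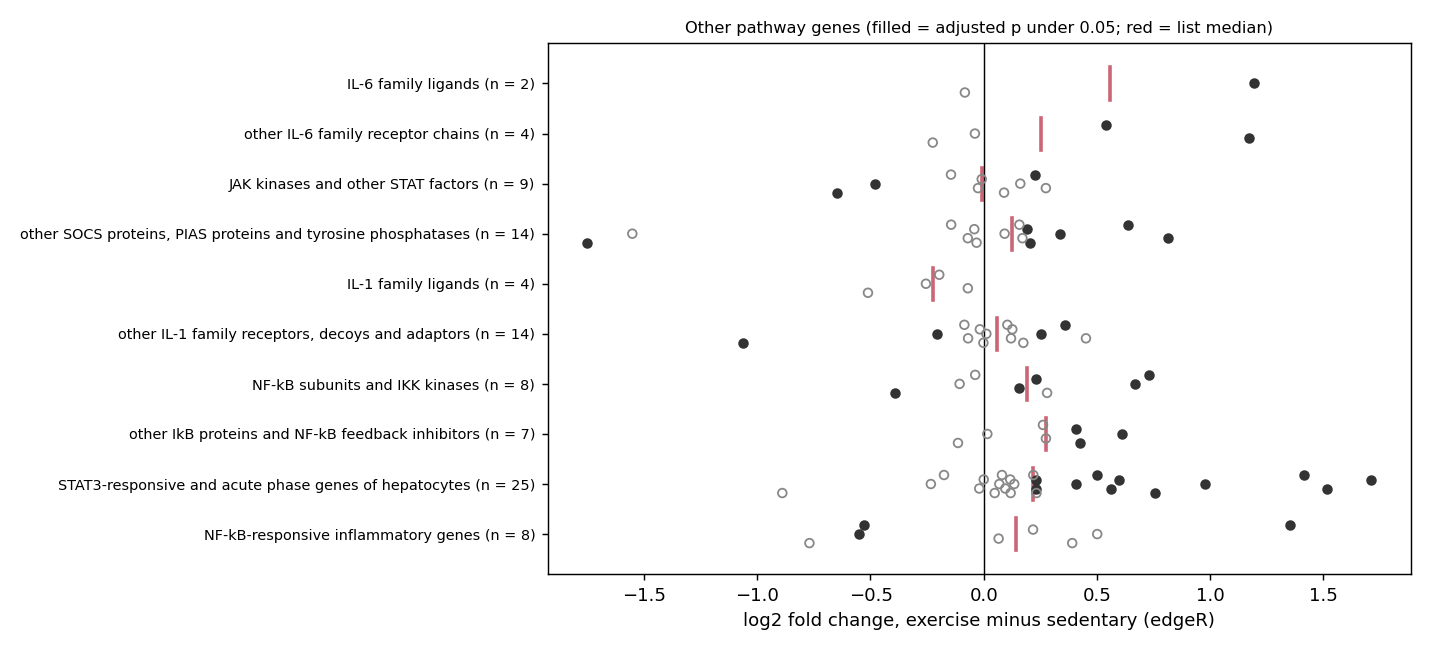
Log2 fold change, exercise minus sedentary, of the 95 tested genes of the 10 pathway lists. Each point is a gene, filled where the adjusted p was under 0.05, red lines are list medians, and the vertical scatter within a list has no meaning. The STAT3-responsive and acute phase list has 11 filled points among 25, all to the right of 0, where 42.4% of all genes tested passed.

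Markers of the other cell types in liver were examined because immune and endothelial cells also carry these receptors. Of 12 Kupffer cell and macrophage markers, 0 changed, and their summed level was 134 to 226 CPM in sedentary and 162 to 245 CPM in exercised livers. Clec4f was at 29.8 ± 4.69 and 32.3 ± 6.15 CPM and Adgre1 at 4.57 ± 1.23 and 4.97 ± 0.905 CPM (SD, n = 6 each). Of 10 neutrophil and monocyte markers 4 were tested and 0 changed (sum 4.99 to 6.74 and 4.54 to 8.58 CPM), with Ly6g at 1.06 ± 0.267 and 0.734 ± 0.510 CPM (SD, n = 6 each) and S100a8 at 22 counts in sedentary and 8 in exercised livers. Lymphocyte markers were near 0 (sum 1.90 to 3.72 and 2.09 to 3.82 CPM), with Cd3e at 20 and 19 counts per group, 2 of 8 tested, Cd79a among them, and 0 changed. Of the 5 cholangiocyte markers tested, Krt19 among them, 0 changed (sum 31.8 to 41.9 and 34.1 to 41.7 CPM). In these 4 lists edgeR found 0 genes at an unadjusted p under 0.05, and DESeq2 and limma-voom also called 0.

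Some endothelial, stellate and hepatocyte markers passed the test with TMM factors. Among all genes tested 42.4% did, 21.1% higher and 21.3% lower, so the counts by themselves do not set these markers apart. Of 8 endothelial markers, Pecam1 (log2 fold change 0.49), Lyve1 (1.18) and Oit3 (0.55) were higher, Kdr (-0.19) was lower, and Stab2 (-0.028) was among the 4 that did not pass. Their sum was 138 to 188 CPM in sedentary and 157 to 240 CPM in exercised livers. Of 8 stellate markers, Hgf (0.53) was higher and Lrat (-0.59) and Des (-0.40) were lower (sum 281 to 377 and 270 to 413 CPM). Of 8 hepatocyte markers, Alb (0.24), Ass1 (0.35) and Hnf4a (0.59) were higher. The part of these shifts in the change of Il1r1, Il6ra or the other genes was not tested.

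The genes whose pattern over the 12 livers was most like that of each changed gene were sought among 8851 genes, as a description that includes the difference between the groups. For Il6ra they were Gpat4 (Pearson r = 0.993), an enzyme of glycerolipid synthesis, and Wbp1l (0.991). For Il1r1 they were Sdc4 (0.993), a cell surface proteoglycan, and Sult1d1 (0.993), a sulfotransferase. Within the 6 sedentary livers alone, r was 0.993 for Gpat4 with Il6ra and 0.978 for Sdc4 with Il1r1, and within the 6 exercised livers it was 0.935 and 0.783. Stat3 was most like Tigit (0.972) and H6pd (0.971). Tigit is a receptor known from T and NK cells, but lymphocyte markers were near 0 in these livers, and the source of its counts was not tested. Nfkbia was most like Ddit4 (0.980), an inhibitor of mTOR signaling. Bcl3 was most like Ube2l6 (0.965) and Mrpl37 (0.960).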

How the data were processed

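Per the labels, RNA of 6 Sedentary and 6 Exercise livers was sequenced. For 17432 genes the deposited table holds estimated counts and FPKM values, both by liver. Their processing notes name Bowtie2 2.3.4.3, RSEM 1.3.1 and mm10, while the annotation and strand setting are not given in the sources used here. The deposited expected counts are not scaled between livers, 31.3% of them are not whole, and they were rounded. The deposited FPKM values are scaled by the authors for length and depth. Replicate livers differed by more than counting noise, and 0 of 66 pairs of libraries were identical. The labels do not say whether equal replicate numbers share a litter or day.

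The test was that of edgeR 4.0.16 (R 4.3.3; filterByExpr with a minimum count of 10, TMM factors, robust quasi-likelihood fit, group as the only term), with Benjamini-Hochberg adjustment over 12344 genes and a threshold of 0.05. Standard errors are the log2 fold change divided by the square root of F, and 95% intervals use the moderated degrees of freedom. Single genes were also compared by a two-sided exact permutation test of mean log2(CPM + 0.5) over 924 relabellings. The fit was tested on simulated data.

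The 9 genes, the 10 pathway lists and the 7 lists of cell markers were written by hand with earlier results of these data known, so they are no independent evidence. Named are all 9 genes, all tested or counted ligands, up to 3 genes per other list with the smallest p and at least 1 CPM, a set of key components and defining markers, markers that passed, and for each changed gene the 2 genes of at least 5 CPM with the highest Pearson correlation. The remaining genes that passed in a list, the serum amyloid genes, Hamp and Pim1 were named after their values were seen. Some genes that the rule names are left out of the text. Alternatives were RLE, upper quartile and library size scaling, other count filters, DESeq2 1.42.0, limma-voom and limma on log2(FPKM + 0.1) with limma 3.58.1, the replicate number as a block, a threshold of 0.01, other pseudocounts and leaving out each liver. Places come from GENCODE on GRCm38 and upstream sequences from RefSeq on GRCm38.p6, which had a window for 9 of the 9 genes. Python 3.11.15 with scipy 1.17.1, pandas 2.3.3 and matplotlib 3.10.9 did the rest.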

Additional observations from a re-analysis of the deposited data

Results flagged for a closer look

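The 9 genes and the named pathway genes, 39 genes in 78 groups of 6 livers, were searched for a liver far from the others of its group. A liver counted as far when its gap to the nearest other liver, divided by the range of the group, was above Dixon's 95% critical value of 0.625. Chance marks about 1 in 20 groups, or 3.9 here, and 3 were found. Stat3 in Exercise replicate 3 was high at 152 CPM with the next liver at 112 CPM (gap over range 0.809). Socs4, a SOCS family inhibitor, was also high in Exercise replicate 3, at 5.56 CPM with the next at 3.70 CPM (0.642). Cntfr, the receptor chain for ciliary neurotrophic factor, was low in Sedentary replicate 3, at 1.99 CPM with the next at 2.96 CPM (0.675).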

How the results depend on the processing

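The count of changed genes among the 9 was 5 under each alternative run, except without Sedentary replicate 1, where Il6st made it 6 (range with 1 liver left out 5 to 6). The only reversals were in Lifr, which was never past the threshold and ranged from -0.063 to 0.046 with 1 liver left out, above 0 without Sedentary replicate 3 (0.046), Exercise replicate 2 (0.015) and Exercise replicate 5 (0.0038). Of the alternative log2 fold changes 184 kept direction and side of the threshold, 1 passed newly (Il6st, 0.18) and 3 reversed. Other pathway genes past the threshold numbered 28 at an adjusted p under 0.01 and up to 42 otherwise, against 38. Il1rn was not tested when at least 10 counts were asked of every liver. With the replicate number as a replicate block, 5 of the 9 genes changed and 4956 genes in all, against 5229. Correlations of same-numbered livers ran from -0.099 to 0.16, 2 of 6 were over 0.1, and 2 livers correlated best with their own number. A weak effect of a shared litter or day would not show in these values, so they do not decide whether equal numbers pair the mice. Depth limits Il1rn, Il6 and the other ligands of few counts, and the deposited table cannot show protein, phosphorylation or the cell type of origin.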
